A study of Sus scrofa with 6 samples.

Results

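DEAD and DEAH box RNA helicases were followed through messenger RNA profiles of pig (Sus scrofa) 8-cell embryos. The genes were taken by name, as every gene whose symbol was DDX or DHX followed by a digit, leaving out DDX4, DDX58 and DHX58. They numbered 50 of the 29874 genes in the table, with 149 transcript rows between them. There were 3 control libraries and 3 libraries of embryos given siRNA to lower the long non-coding RNA called LncT, a group named knockdown here. The labels list injection of siRNA into the cytoplasm as the protocol of all 6 libraries, but name siRNA as the treatment for the knockdowns and Control for the others, and they do not say what the controls received. The labels give no breed, fertilization method or number of embryos in a library, and they do not say whether replicates came from separate collections. The p-values therefore measure the spread between these libraries, which may be technical. The level of LncT itself was not analysed here.

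DEAD and DEAH box proteins use ATP to open short RNA duplexes or to strip proteins from RNA, and are named after the amino acids of one of their conserved motifs. Nearly every step in the life of an RNA depends on some of them, from splicing and nuclear export to translation, storage, decay and the building of ribosomes. In early embryos, maternal mRNAs stored in the egg are cleared while the embryo begins its own transcription, and splicing and ribosome assembly are taken up anew. Most of the roles given below were worked out in yeast and in human cells.

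Levels are in FPKM, read fragments scaled to transcript length and to the size of the library, summed over the transcripts of a gene, so they can be compared between genes. Relative depth, taken as coverage per FPKM, ran from 6.29 to 9.41 over the 6 libraries. Control 3 stood apart from controls 1 and 2. For 59.6% of the 10417 genes tested, controls 1 and 2 both lay on the same side of the other 4 libraries, and limma's array weights gave control 3 a weight of 0.113 against 0.789 to 2.31 elsewhere. Tests that turn on it are therefore given with and without control 3. The summed level of 10 oocyte and embryo markers reached 2986 and 2877 FPKM in controls 1 and 2. It was 1302 FPKM for control 3 and ranged from 1365 to 1975 over the knockdowns, with controls 1 and 2 above the rest. Of the 10, 5 (GDF9, BMP15, ZP3, NLRP5 and KPNA7) divided the libraries that way, beside 29.5% of all genes tested. The other 5 did not, DPPA3 being highest in control 3 and ZP4 in knockdown 3. The part of the 10 markers in the helicase values was not tested. The 7 measured granulosa and cumulus markers summed to between 5.64 and 8.36 FPKM, mostly INHBA, and FOXL2 was at 0 throughout. TNFAIP6, a cumulus marker, was at 0.086, 0.352 and 0.537 FPKM in controls, against 1.59, 1.46 and 1.74 in knockdowns, higher in every knockdown. It was the only 1 of the 7 with that pattern, and its mean was below 1 FPKM. TNFAIP6 thus lies outside the 10417 genes tested, of which 4.38% had that pattern. INHBA was highest in controls 1 and 2, at 7.87, 6.28 and 4.80 FPKM in controls, against 4.34, 5.66 and 5.52 in knockdowns. The part of these markers was not tested. Of the 5 sperm markers, 4 were at 0 in every library. In bulk libraries, fewer cells of a type and less RNA per cell cannot be told apart.

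The helicase genes covered a wide range of levels. DDX18, which acts on the large ribosomal subunit, had the highest mean, at 466.6, 387.3 and 299.2 FPKM in controls 1, 2 and 3, against 332.0, 325.3 and 363.2 in knockdowns 1, 2 and 3. DDX5, a partner of transcription factors and of the small RNA machinery, came next, at 100.2, 117.3 and 252.2 FPKM over the controls, set against 172.4, 337.4 and 261.1 over the knockdowns. DDX18 alone made up 42.7% of the summed helicase FPKM in control 1, 38.0% in control 2, 22.8% in control 3 and from 22.8% to 28.6% over the knockdowns. In knockdown 2 DDX5 stood above it. DDX18 and DDX5 were the only members with a mean of 100 FPKM or more over the 6 libraries. Means of 10 to 100 FPKM were found for 17 genes, 2 to 10 for 19 and 1 to 2 for 9. The 9 were DDX19B, DDX25, DDX28, DDX31, DDX41, DDX51, DDX53, DDX54 and DHX30. The remaining 3 genes, DHX16, DHX37 and DHX34, had means below 1 FPKM and were not tested. Together the 50 genes held 0.223%, 0.205% and 0.206% of all FPKM in controls, against 0.176%, 0.265% and 0.254% in knockdowns. The shares of the groups overlapped. Members at 1 FPKM or more numbered 38 for each of controls 1 and 2 and 45 for control 3, against 46, 47 and 48 for the knockdowns. Counts over all genes at 1 FPKM or more were likewise lowest in controls 1 and 2, at 9237, 9490 and 10335 for controls 1, 2 and 3, against 9940, 10577 and 10413 for the knockdowns.

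**Figure D1:**
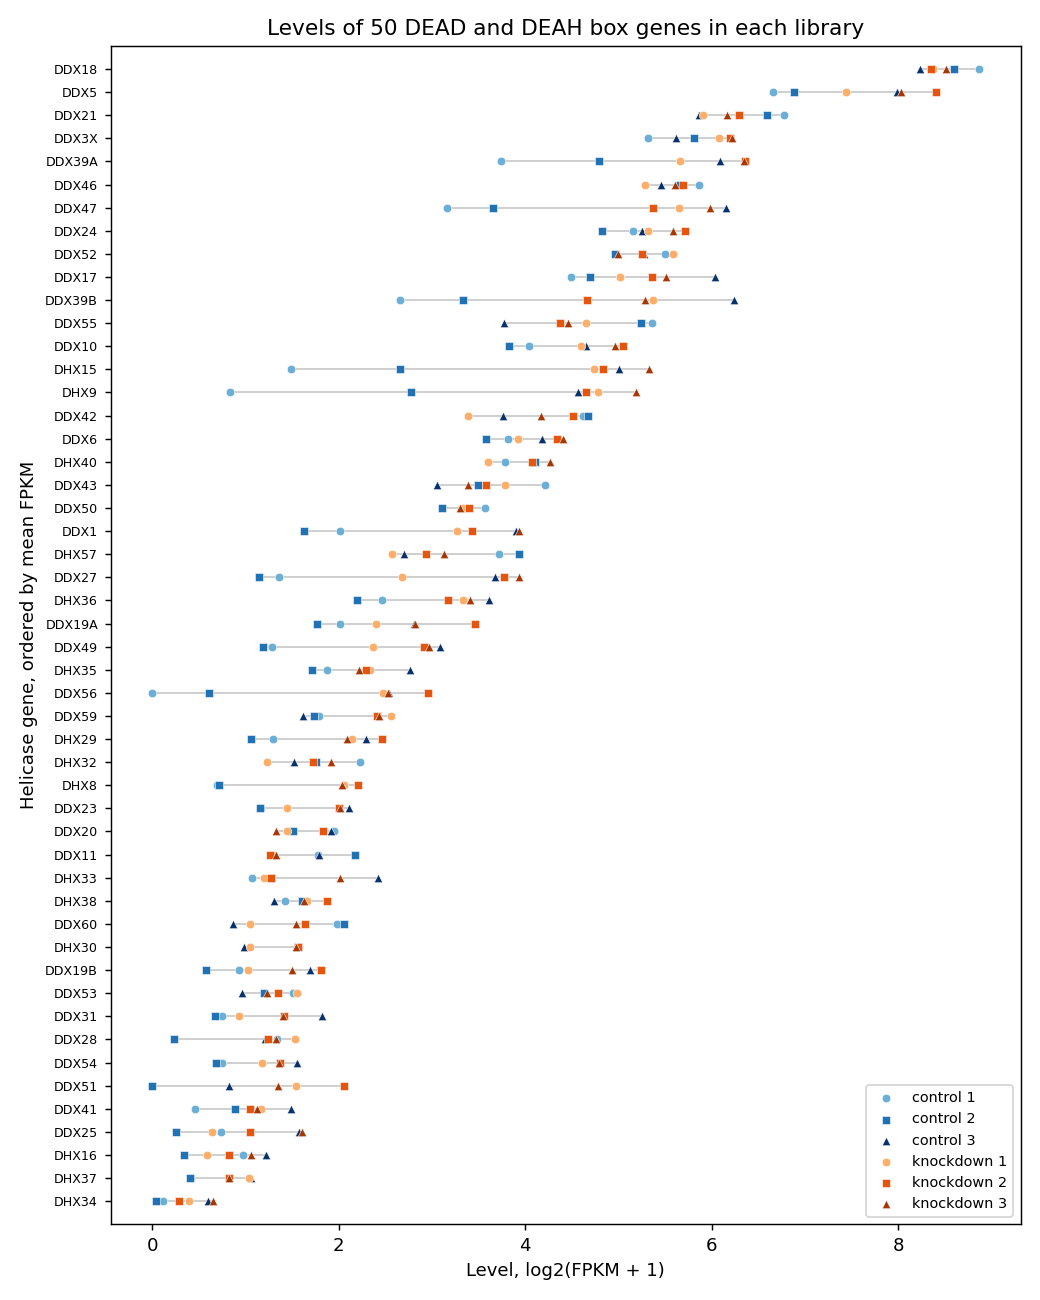
Level of each of the 50 helicase genes as log2(FPKM + 1) on the horizontal axis, with genes ordered by mean level. Each point is 1 library and the grey line spans the 6 libraries; DHX9, DHX15, DDX56, DDX47 and DDX39B span several log2 units, with controls 1 and 2 at the low end, while DDX52 and DDX50 span less than 1.

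The comparison of knockdown with control asks how these transcripts stand in embryos given siRNA against LncT. The genes that stood out by size were DHX9, which opens double-stranded RNA and RNA-DNA hybrids, DHX15, which takes spent spliceosomes apart, and the ribosome biogenesis factors DDX56, DDX27, DDX51 and DDX47. The mean levels of DHX9, DHX15, DDX27 and DDX47 were 2.95, 2.41, 2.23 and 1.69 times as high in knockdowns as in controls, and all 6 genes had control 3 above controls 1 and 2. For DDX3X, DDX59 and DDX11 the groups did not overlap and the log2 change was about as large without control 3. With 6 libraries 0 of the 47 tested members passed limma's test (adjusted p from 0.775 to 0.996), as did 0.0% of the 10417 genes tested. At an unadjusted p under 0.05, 4 members (DDX51, DDX56, DDX59 and DHX9) were higher and 0 lower in limma, where 4.19% of all genes passed, 3.6% higher and 0.586% lower.

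Over the 47 tested members, 34 (72.3%) had a log2 change above 0, against 50.4% of all genes tested. A log2 change here is the difference of the group means of log2(FPKM + 1), positive where knockdowns were higher, and it shrinks the differences of genes at low FPKM. The median was 0.31 for the members and 0.00 for all genes. Under quantile normalization those medians were 0.08 and -0.17, with TPM 0.31 and -0.10, and under median-of-ratios scaling 0.28 and -0.01. The sign of the rounded log2 change stayed the same for 24 members above 0 and 9 below 0 over every scaling, setting and left-out library run on gene sums. DDX18 is not among the 9 because its change rounded to -0.0 without control 1, and it was below 0 in the other settings. Every knockdown lay above every control for 7 members (14.9%), against 4.38% of all genes, and below every control for 1 (2.13%), against 2.86%, so that 7.24% of all genes had groups that did not overlap. The 7 were DDX3X, DDX24, DDX51, DDX59, DHX8, DHX9 and DHX38, and the 1 was DDX11. Of the 47, DDX25 and DDX51 reached the minimum of 1 FPKM through the knockdowns, their control means being below it. The counts for tested members are therefore not counts for all 50. DDX51 is among the 7, and among the 4 higher at an unadjusted p under 0.05 in limma, so the filter favours both counts.

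Without control 3, 15 members (31.9%) passed as higher and 2 (4.26%) as lower in limma, against 20.2% and 7.22% of all genes tested, 27.4% in either direction. Adjusted p-values of those 17 genes ran from 0.00173 to 0.0413. The log2 change moved further from 0 with the same sign for 39 of the 47, and for 81.3% of all genes. The higher genes were DHX15, DDX39B and DHX8 of splicing, DDX39A of export, DDX1 and DHX29 of translation and tRNA joining, DHX9 and DHX36 of RNA structure, DDX5, and the ribosome biogenesis factors DDX10, DDX27, DDX47, DDX49, DDX51 and DDX56. The lower genes were DDX55 and DHX57. DDX51 was called against 2 controls both listed at 0, and 14 genes remain as higher when it is set aside. Among the 14, DDX56 had control 1 listed at 0. With array weights 19 members were higher and 3 lower, against 23.5% and 9.23% of all genes (32.7% together). Since control 3 has a low weight there, that fit nearly leaves it out too and is no separate support. Under the other 15 alternatives 0 members passed, with limma adjusted p from 0.663 to 0.9998 over those settings. Every knockdown lay above controls 1 and 2 for 28 members (59.6%) and below them for 7 (14.9%), against 31.3% and 30.5% of all genes.

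**Figure D2:**
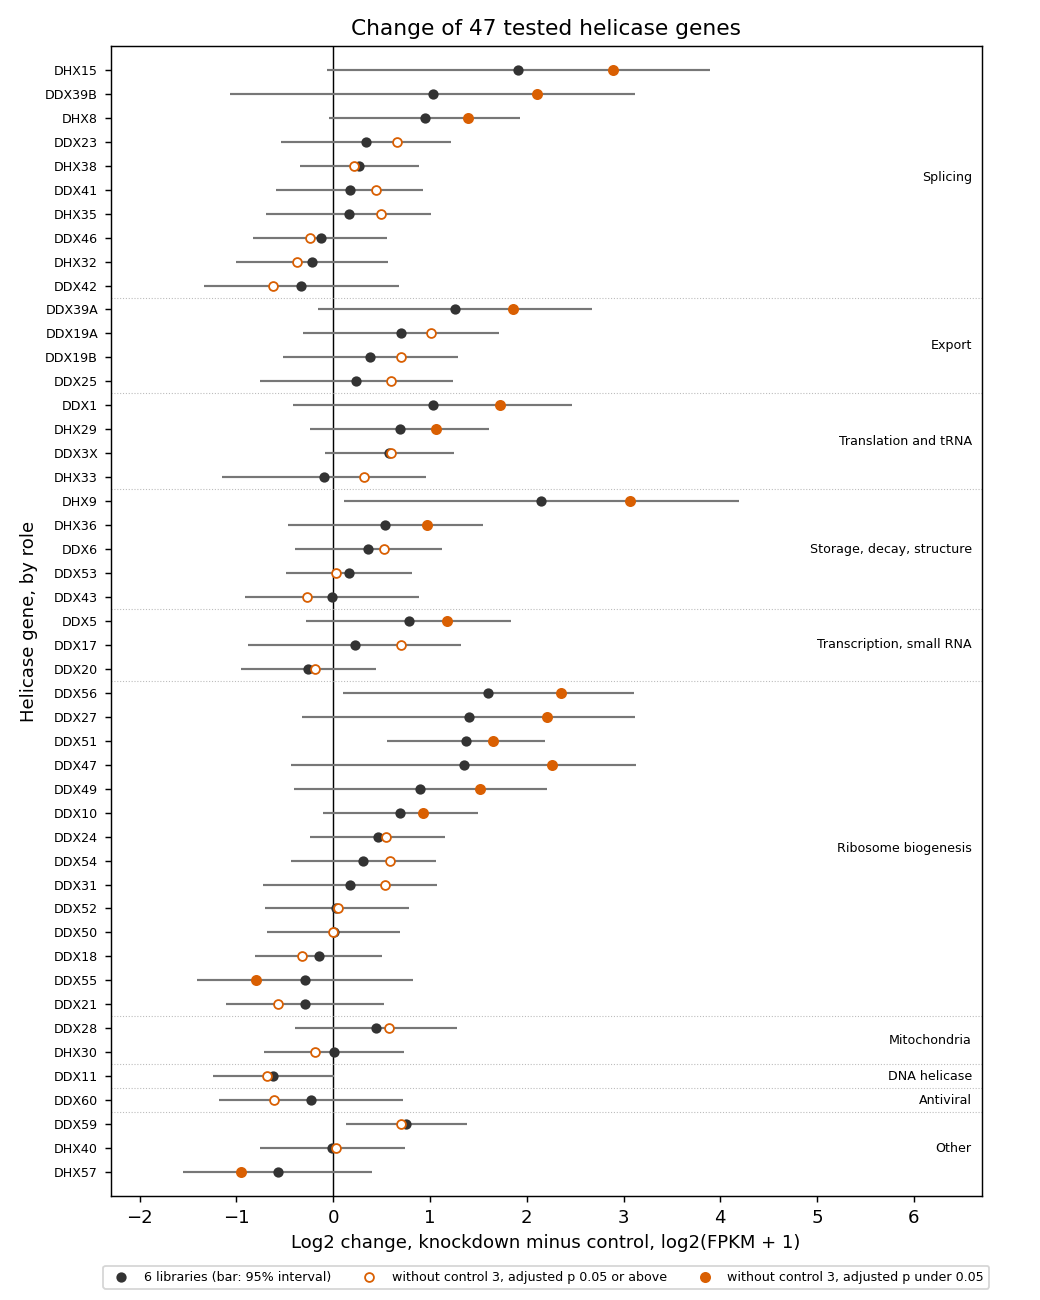
Log2 change of the 47 tested helicase genes, knockdown minus control, grouped by role. Black points and bars give the estimate and 95% interval from 6 libraries, and orange points the estimate without control 3, filled where limma's adjusted p was under 0.05; 15 filled points lie above 0 and 2 below.

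The helicases differed in where control 3 lay. Controls 1 and 2 both lay below the other 4 libraries for 25 tested members (53.2%), against 30.1% of all genes, and above them for 6 (12.8%), against 29.5%. Control 3 lay within the knockdown range for 19 members (40.4%), above every knockdown for 13 (27.7%) and below every knockdown for 15 (31.9%). These were near the shares over all genes, at 42.7%, 25.5% and 31.9%. The median coefficient of variation of the tested members was 54.0% over the 3 controls, 16.6% over controls 1 and 2, and 21.1% over the 3 knockdowns. For all genes tested these medians were 46.2%, 19.7% and 25.6%.

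**Figure D3:**
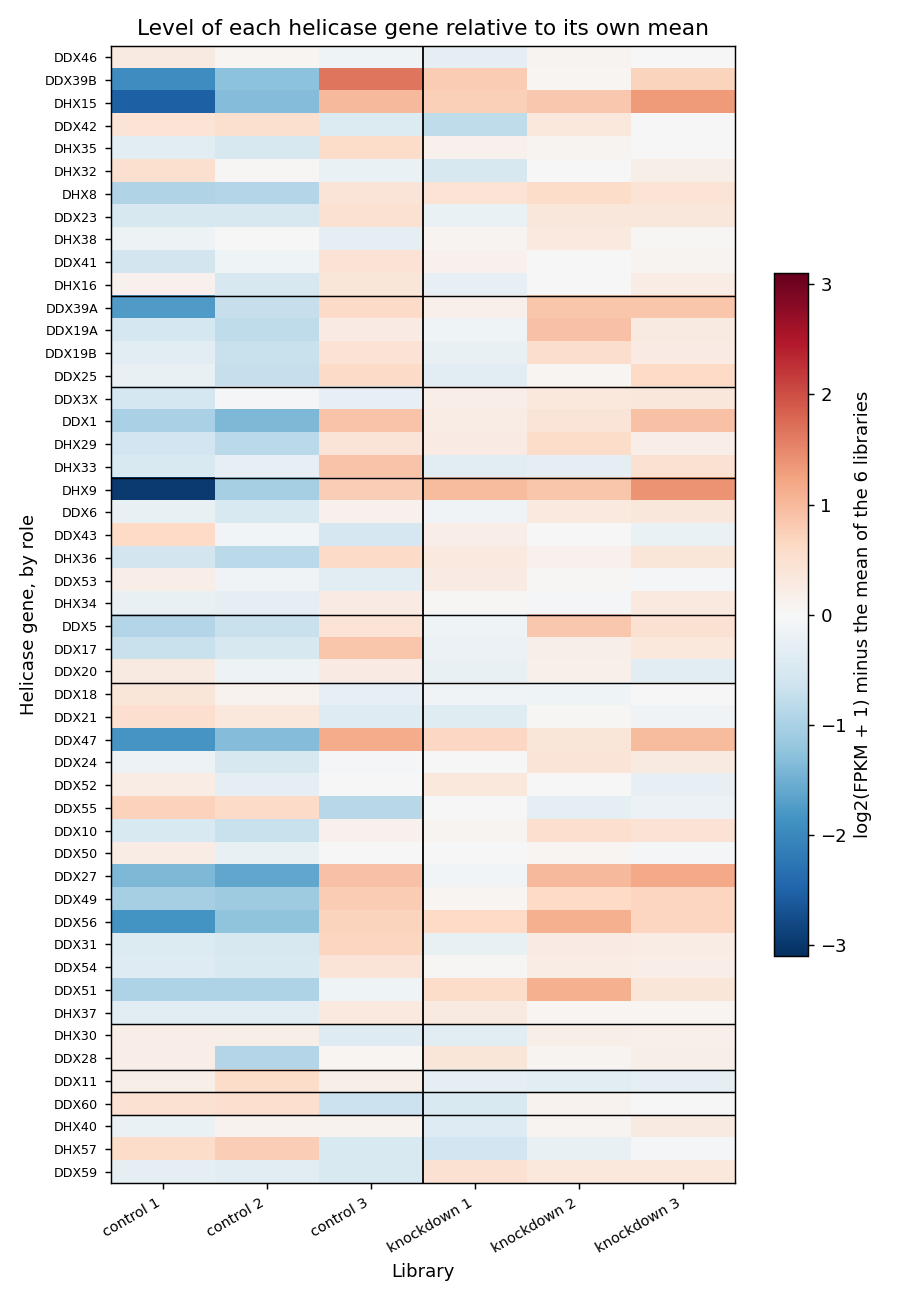
Deviation of each helicase gene from its own mean over the 6 libraries, in log2(FPKM + 1) units, with libraries in columns and genes in rows, grouped by role (splicing, export, translation and tRNA, storage and decay, transcription and small RNA, ribosome biogenesis, mitochondria, DNA helicase, antiviral, other). Blue marks levels below the mean and red above; controls 1 and 2 are blue for 25 tested genes whose other 4 libraries are all higher, among them DHX15, DDX39B, DHX9, DDX47 and DDX56.

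Splicing helicases act in turn as the spliceosome is assembled, activated, remodelled and taken apart. Of 11 such genes 10 were tested, with 7 above 0 and 3 below, a median log2 change of 0.22, and 0 past the adjusted threshold. Without control 3, 3 of the 10 passed as higher, not far from the 20.2% of all genes. DHX15 (chromosome 8, 18563808 to 18620892, Sscrofa11.1), which releases the lariat at the end of the cycle, was at 1.81, 5.33 and 31.2 FPKM among controls, compared with 25.7, 27.6 and 39.1 among knockdowns. Controls 1 and 2 were low, and control 3 lay within the range of the knockdowns. Its log2 change was 1.91 ± 0.84 (SE, limma adjusted p = 0.775), or 2.89 without control 3 (limma adjusted p = 0.00216).

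DHX8, which frees the spliced mRNA from the spliceosome, was at 0.62, 0.64 and 3.104 FPKM in controls, against 3.161, 3.616 and 3.110 in knockdowns. The groups did not overlap, but control 3 was only just below the lowest knockdown. Its log2 change was 0.95 ± 0.42 (SE, limma adjusted p = 0.775) with 6 libraries and 1.39 without control 3 (limma adjusted p = 0.00598). DHX38, which remodels the spliceosome before the second step, was at 1.68, 2.05 and 1.48 FPKM over the controls, set against 2.16, 2.67 and 2.09 over the knockdowns. Every knockdown was higher, by a small margin, and the log2 change of 0.27 did not pass with control 3 or without it (limma adjusted p = 0.788 and 0.547). The DHX38 span overlaps that of PMFBP1, at 11.8 to 29.1 FPKM. Whether strand was used in counting is not stated, so reads of the overlap may be assigned to either gene. The spans of 17 of the 50 members overlap another gene, and not every overlap is named here.

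DDX46, which helps the U2 particle to bind the branch site, had the highest mean of the splicing list. It was at 57.5, 49.7 and 42.8 FPKM among controls, compared with 38.0, 50.6 and 47.9 among knockdowns. The groups overlapped, and the log2 change was -0.13 (95% interval -0.83 to 0.56). DDX39B, which acts in early spliceosome assembly and in mRNA export, was at 5.33, 9.07 and 74.8 FPKM in controls, against 40.5, 24.3 and 38.0 in knockdowns. Control 3 was the highest of the 6 libraries, above every knockdown. The log2 change of DDX39B was 1.03 (95% interval -1.07 to 3.12) with 6 libraries and 2.11 without control 3 (limma adjusted p = 0.00399). In control 1 the DDX39B transcript row with the highest mean was listed at 0, and another row held 94.8% of the gene. A value listed at 0 may be a failed estimate, so the call without control 3 is uncertain. Among the others, DDX23, a component of the U5 particle, DDX41, DHX35, DHX32 and DDX42 had log2 changes of 0.34, 0.17, 0.16, -0.22 and -0.33. The signs of DDX41 and DHX35 turned under quantile normalization and when 1 of the controls was left out. The DHX32 span overlaps that of BCCIP, at 22.4 to 73.9 FPKM, so the DHX32 value is uncertain. DHX16, which starts the first step of splicing, had a mean below 1 FPKM in both groups, at 0.86 ± 0.54 in controls and 0.79 ± 0.29 in knockdowns (SD, n = 3), and was not tested.

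The export list held DDX39A, a close relative of DDX39B, DDX19A and DDX19B, which release mRNA at the nuclear pore, and DDX25, known in mouse for export and translation in spermatids. All 4 were tested, 4 had a log2 change above 0, and 0 passed. DDX25 turned below 0 under quantile normalization, and also without control 2 (-0.06) and without knockdown 3 (-0.01). DDX39A was at 12.3, 26.6 and 66.9 FPKM over the controls, set against 49.8, 81.2 and 80.6 over the knockdowns. Controls 1 and 2 lay below the other libraries, and control 3 within the knockdown range. Its log2 change was 1.26 ± 0.60 (SE), or 1.86 without control 3 (limma adjusted p = 0.775 and 0.0116). DDX19A was at 3.04, 2.40 and 6.03 FPKM among controls, compared with 4.29, 10.1 and 6.07 among knockdowns, and DDX19B, its neighbour on chromosome 6, at 0.90, 0.49 and 2.24 against 1.04, 2.52 and 1.84. In both genes control 3 lay among the knockdowns and controls 1 and 2 below them. Reads of this near-identical pair can be shared, which leaves each value uncertain.

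DDX3X, on the X chromosome (36988031 to 37005496), helps ribosomes through structured leaders of mRNAs and was the fourth most abundant helicase. It was at 39.0, 55.02 and 48.3 FPKM in controls, against 66.8, 72.4 and 73.7 in knockdowns. The groups did not overlap, and control 3 lay between controls 1 and 2. The means were 47.4 ± 8.03 and 71.0 ± 3.66 FPKM (SD, n = 3), a ratio of 1.496. The log2 change was 0.58 ± 0.28 (SE, 95% interval -0.09 to 1.25, limma adjusted p = 0.775). It was 0.60 without control 3 (limma adjusted p = 0.103), so the size held but the gene was past the threshold in neither case.

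DHX29, which helps the small ribosomal subunit to scan, was at 1.46, 1.08 and 3.90 FPKM over the controls, set against 3.43, 4.54 and 3.27 over the knockdowns. Control 3 lay within the knockdown range. The log2 change was 0.69, or 1.06 without control 3 (limma adjusted p = 0.775 and 0.0245). Its span overlaps a long non-coding RNA gene at 9.08 to 21.3 FPKM that was highest in controls 1 and 2, so its value is uncertain. DDX1, a member of the tRNA ligase complex, was at 3.05, 2.09 and 14.0 FPKM among controls, compared with 8.64, 9.81 and 14.3 among knockdowns, again with control 3 among the knockdowns. DDX1 had a log2 change of 1.03, or 1.72 without control 3 (limma adjusted p = 0.775 and 0.00638). DHX33, tied to the joining of ribosomal subunits, was at 2.301 ± 1.81 and 1.92 ± 0.97 FPKM (SD, n = 3), and its log2 change of -0.10 became 0.32 without control 3.

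Among helicases of mRNA storage, decay and RNA structure, 5 of 6 were tested, with 4 above 0, 1 below and 0 past the threshold. DHX9 (chromosome 9, 124141929 to 124183838) had the largest log2 change of the 47. It was at 0.78, 5.83 and 22.7 FPKM in controls, against 26.6, 24.1 and 35.6 in knockdowns. The groups did not overlap, but the distance from control 3 to the nearest knockdown was small beside that between the controls. The log2 change was 2.15 ± 0.86 (SE, 95% interval 0.11 to 4.19, limma adjusted p = 0.775). It was 3.07 without control 3 (limma adjusted p = 0.00588) and 1.21 without control 1.

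DDX6, which keeps stored mRNAs silent in oocytes and promotes decapping elsewhere, was at 13.1, 10.9 and 17.2 FPKM over the controls, set against 14.2, 19.3 and 20.2 over the knockdowns. The groups overlapped, and the log2 change was 0.36 (95% interval -0.40 to 1.12), or 0.52 without control 3 (limma adjusted p = 0.171). DHX36, which opens G-quadruplexes, four-stranded structures of guanine-rich RNA, was at 4.54, 3.59 and 11.3 FPKM among controls, compared with 9.06, 8.04 and 9.59 among knockdowns. Control 3 was above every knockdown, and the log2 change went from 0.54 with 6 libraries to 0.97 without it (limma adjusted p = 0.775 and 0.0283). DDX43 and DDX53, whose expression is largely kept to the germ line and tumours, had log2 changes of -0.01 and 0.16, or -0.27 and 0.03 without control 3. The sign of DDX53 turned under quantile normalization. DDX43 was above 0 without control 1 (0.31) and without knockdown 3 (0.09). DHX34, a factor of nonsense-mediated decay, had a mean below 0.5 FPKM, at 0.03 to 0.51 FPKM in controls and 0.22 to 0.58 in knockdowns, and was not tested.

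DDX5 had a log2 change of 0.78 ± 0.45 (SE, limma adjusted p = 0.775), with control 3 within the knockdown range and controls 1 and 2 below it. Without control 3 its log2 change was 1.18 (limma adjusted p = 0.0293). DDX17, its closest relative, was at 21.5, 25.0 and 64.7 FPKM in controls, against 31.3, 40.1 and 44.6 in knockdowns. Here control 3 was above every knockdown, and the log2 change of DDX17 was 0.22, or 0.70 without control 3 (limma adjusted p = 0.886 and 0.0784). DDX20, a subunit of the SMN complex that assembles spliceosomal particles, was at 2.501 ± 0.57 and 1.94 ± 0.55 FPKM (SD, n = 3), with overlapping groups.

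Ribosome biogenesis was the largest role, with 15 genes, of which 14 were tested. Their median log2 change was 0.38, with 11 above 0, 3 below and 0 past the threshold. Without control 3, 6 of the 14 (DDX51 among them) passed as higher and 1 as lower, beside 20.2% and 7.22% of all genes, so the lower count is at background. DDX51 (chromosome 14, 23262738 to 23269905), needed for the large subunit, was listed at 0 for controls 1 and 2, had 0.77 FPKM in control 3, and reached 1.91, 3.15 and 1.54 over the knockdowns. Every knockdown lay above control 3. Its log2 change of 1.37 ± 0.35 (SE) had the smallest p of the 47 (limma adjusted p = 0.775). A value listed at 0 may be a failed estimate, so neither a fold nor a p-value against controls 1 and 2 alone is printed for DDX51. It is still counted among the 6 called higher without control 3, where its call rests on controls 1 and 2 both listed at 0.

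DDX56 (chromosome 18, 50705613 to 50714967), also a large subunit factor, was listed at 0 for control 1. Controls 2 and 3 had 0.53 and 4.80 FPKM, against 4.55, 6.77 and 4.77 over the knockdowns. Control 3 lay among the knockdowns. The log2 change of DDX56 was 1.60 ± 0.64 (SE), or 2.35 without control 3 (limma adjusted p = 0.775 and 0.00187). The value of 0 in control 1 may be a failed estimate, so the call of DDX56 without control 3 is uncertain. DDX47, which acts on the small subunit, was at 7.92, 11.6 and 70.1 FPKM over the controls, set against 49.2, 40.5 and 62.1 over the knockdowns, with control 3 the highest library. Its log2 change was 1.35 with 6 libraries and 2.26 without control 3 (limma adjusted p = 0.775 and 0.00173). DDX27 and DDX49 are relatives of yeast factors of the large and the small subunit. DDX27 was at 1.57, 1.22 and 11.8 FPKM among controls, compared with 5.41, 12.7 and 14.3 among knockdowns, and DDX49 at 1.43, 1.28 and 7.52 against 4.16, 6.56 and 6.84. Both had controls 1 and 2 below the other 4 libraries. Their log2 changes were 1.4 and 0.9 with 6 libraries (limma adjusted p = 0.775 for both). Without control 3 they were 2.21 and 1.52 (limma adjusted p = 0.0075 and 0.00874). DDX27 holds a pseudogene within its span, at up to 1.77 FPKM.

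DDX24, which works on the large subunit in yeast, was at 34.6, 27.3 and 37.3 FPKM in controls, against 38.8, 51.6 and 47.1 in knockdowns. The groups did not overlap, with control 3 only just below the lowest knockdown. DDX24 had a log2 change of 0.46, or 0.55 without control 3 (limma adjusted p = 0.775 and 0.135). DDX10, relative of a yeast small subunit factor, was at 15.5, 13.3 and 24.2 FPKM over the controls, set against 23.2, 32.2 and 30.2 over the knockdowns, where control 3 lay within the range. Its log2 change was 0.69 with 6 libraries, or 0.93 without control 3 (limma adjusted p = 0.775 and 0.0346).

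The most abundant ribosome biogenesis factors did not share the pattern of DDX47 and DDX56. The log2 change of DDX18 was -0.15 (95% interval -0.81 to 0.50). DDX21, which links transcription of ribosomal RNA to its processing, was at 108.8, 95.95 and 57.2 FPKM among controls, compared with 58.9, 77.6 and 70.6 among knockdowns. In both genes controls 1 and 2 lay above the other 4 libraries, and control 3 below every knockdown. DDX55, relative of a yeast large subunit factor, was at 39.99, 36.8 and 12.7 FPKM in controls, against 24.2, 19.8 and 21.0 in knockdowns, in the same order. The log2 change of DDX55 was -0.29, or -0.80 without control 3 (limma adjusted p = 0.854 and 0.0413). DDX52, a small subunit factor in yeast, and DDX50, the paralogue of DDX21, had log2 changes of 0.03 and 0.01. Their 95% intervals were -0.71 to 0.78 and -0.68 to 0.69. The DDX50 span overlaps a long non-coding RNA gene at 5.36 to 9.84 FPKM. The DDX50 values, here and in the ratios below, are therefore uncertain. DDX54 and DDX31, both relatives of yeast large subunit factors, had log2 changes of 0.31 and 0.17, each turning below 0 under quantile normalization. DDX31 also turned below 0 without control 2, at -0.04. The DDX54 span overlaps that of RITA1, at 1.77 to 5.64 FPKM, so the DDX54 value is uncertain. DHX37, which acts on the small subunit and had a mean below 1 FPKM, was at 0.34, 0.32 and 1.09 FPKM over the controls, set against 1.05, 0.77 and 0.78 over the knockdowns, and was not tested.

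Of the mitochondrial ribosome factors, DDX28 was at 1.54, 0.18 and 1.31 FPKM among controls, compared with 1.89, 1.36 and 1.52 among knockdowns, and DHX30 at 1.99, 1.95 and 0.99 against 1.07, 1.96 and 1.91. Both sets of values overlapped between the groups. DDX11 (chromosome 5, 67359399 to 67395739), a DNA helicase of sister chromatid cohesion that carries a DDX symbol, was at 2.44, 3.51 and 2.47 FPKM in controls, against 1.48, 1.41 and 1.51 in knockdowns. Every knockdown lay below every control, and control 3 was level with control 1. The DDX11 sum came from different transcript rows in different libraries. Its row with the highest mean held 96.9%, 0% and 98.6% of the gene in controls, against 0%, 19.6% and 100% in knockdowns. The log2 change of DDX11 was -0.62 ± 0.27 (SE, limma adjusted p = 0.775), and -0.68 without control 3 (limma adjusted p = 0.0842).

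DDX59, linked in humans to developmental disorders of cilia, was at 2.47, 2.34 and 2.08 FPKM over the controls, set against 4.90, 4.33 and 4.40 over the knockdowns. The groups were apart by more than their own ranges, and control 3 was the lowest of the 6 libraries. The means were 2.296 ± 0.20 and 4.55 ± 0.31 FPKM (SD, n = 3), a ratio of 1.98. The log2 change was 0.75 ± 0.26 (SE, limma adjusted p = 0.775), and 0.70 without control 3 (limma adjusted p = 0.0677).

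DHX57, whose role is not well known, was at 12.2, 14.3 and 5.51 FPKM among controls, compared with 4.95, 6.66 and 7.79 among knockdowns, with control 3 among the knockdowns. Its log2 change was -0.57, or -0.95 without control 3 (limma adjusted p = 0.775 and 0.0407). DHX57 overlaps GEMIN6, at 20.2 to 27.0 FPKM, and MORN2. DHX40, likewise little studied, had a mean of 15.0 FPKM in controls and 15.1 in knockdowns, a log2 change of -0.01 (95% interval -0.76 to 0.74). DDX60, an interferon-induced antiviral factor, was at 2.97, 3.16 and 0.83 FPKM in controls, against 1.07, 2.12 and 1.91 in knockdowns, with control 3 the lowest library.

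The transcript row that led a gene often varied within a group. Of the 149 transcript rows, 78 were above 0 in some library, and 17 genes had more than 1 such row. In 12 of the 17 the leading row differed between libraries, within the knockdowns in 9 and within the controls in 7. For DHX9 the row with the highest mean was at 26.6 and 34.8 FPKM in knockdowns 1 and 3 but at 0.05 in knockdown 2, where another row held 24.04. The DDX5 row with the highest mean held 5.49%, 99.2% and 51.1% of the gene in knockdowns 1, 2 and 3. In DDX6 a row that was listed at 0 in the other 5 libraries held 88.2% of the gene in knockdown 1. The sums of these genes were closer between those libraries than the rows were. The leading row separated knockdowns from controls in 1 gene, DDX25, at 0.20 to 2.04 FPKM. In limma's test of single rows, 0 of 54 helicase rows passed the adjusted threshold, against 0.117% of the 12013 rows tested (0.0749% higher, 0.0416% lower). At an unadjusted p under 0.05 there were 2 of the 54, near the share of all rows, 3.88%. How reads were divided between transcripts was not tested.

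**Figure D4:**
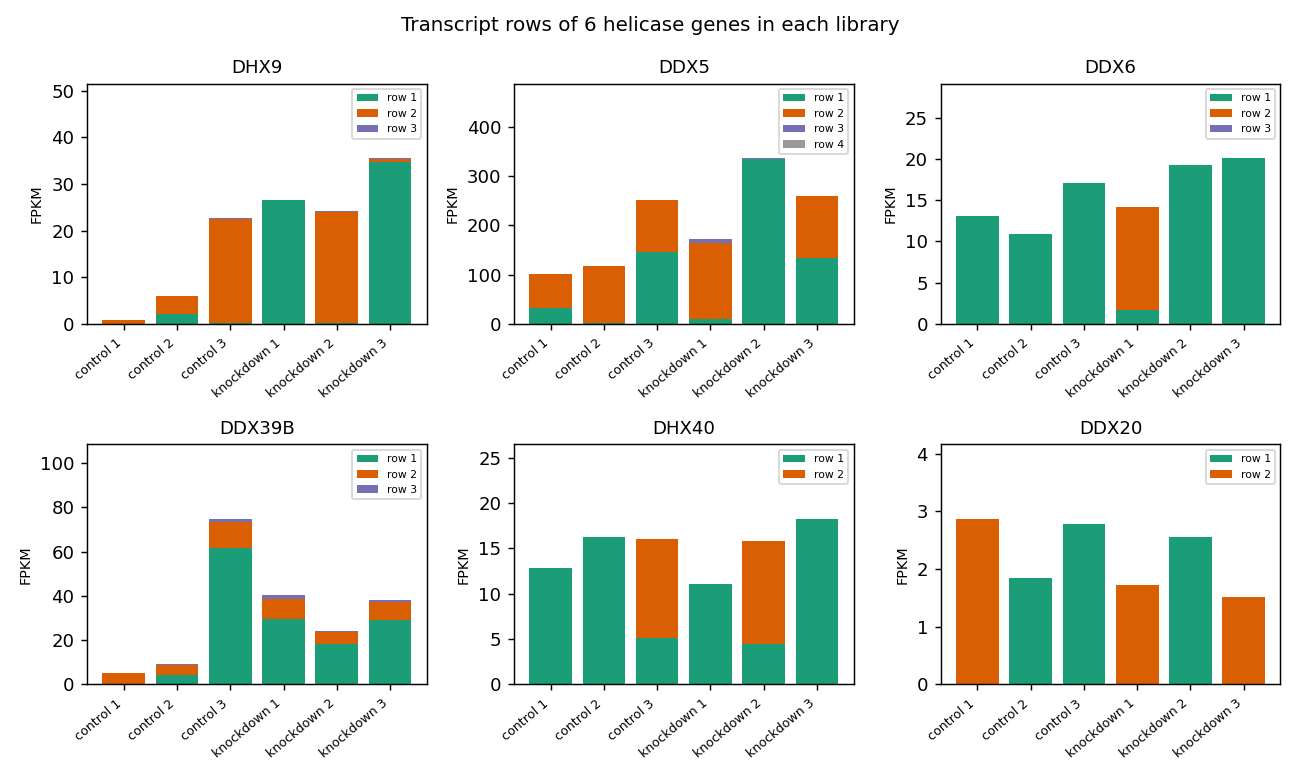
FPKM of each transcript row of DHX9, DDX5, DDX6, DDX39B, DHX40 and DDX20 in the 6 libraries, stacked so that the bar height is the level of the gene; rows are numbered by mean level. The row that dominates changes between knockdowns 1, 2 and 3 in every panel except DDX39B, while DDX39B has row 1 listed at 0 in control 1.

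Close relatives were set against each other within each library, which removes differences of scale between libraries. DDX5 was 4.66, 4.70 and 3.90 times as abundant as DDX17 in controls, against 5.51, 8.41 and 5.86 times in knockdowns. These ratios did not overlap, unlike those of the pairs that follow, and control 3 had the lowest. No share over other gene pairs was computed, so this separation has no background beside it. DDX21 was 10.03, 12.6 and 6.32 times as abundant as DDX50 in controls, against 6.52, 8.10 and 7.99 times in knockdowns, with overlap. DDX39A exceeded DDX39B in every library but control 3, with ratios of 2.31, 2.94 and 0.89 over the controls, set against 1.23, 3.35 and 2.12 over the knockdowns. DDX19A exceeded DDX19B in every library, by 2.69 to 4.86 times.

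A list of 69 partners and other helicases named the genes that work beside these proteins, and 54 of them were tested. Of these, 35 had a log2 change above 0 and 19 below, the median was 0.21, and 0 passed with 6 libraries. At an unadjusted p under 0.05 in limma there were 2 higher and 0 lower, near the background of 3.6% and 0.586% of all genes. The 2 were MAGOHB, a core protein of the exon junction complex, at 0.57, 0.60 and 3.66 FPKM among controls, compared with 5.27, 5.17 and 3.16 among knockdowns, and GPKOW, a splicing partner of DHX16. GPKOW was at 0.22, 0.25 and 1.09 FPKM in controls, against 2.27, 1.34 and 1.76 in knockdowns. Groups did not overlap for 4 partners, GPKOW and SUGP1 higher and GLE1 and CASC3 lower, where all genes gave 4.38% higher and 2.86% lower. GPKOW and SUGP1 reached the minimum of 1 FPKM through the knockdowns, their control means being 0.52 and 0.75 FPKM. The filter therefore favours their place among the higher genes. GLE1, the activator of DDX19, was at 5.03, 6.15 and 4.21 FPKM over the controls, set against 2.09, 4.17 and 3.69 over the knockdowns. CASC3, of the exon junction complex, was at 9.12, 6.16 and 6.71 FPKM among controls, compared with 3.15, 4.10 and 5.92 among knockdowns. GLE1 and CASC3 were named after their values were seen. Without control 3, 17 of the 54 passed as higher and 3, EDC3, NUP214 and CMTR1, as lower in limma, against 20.2% and 7.22% of all genes.

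EIF4A1 and EIF4A2 are DEAD box proteins by sequence although their symbols differ, and they unwind mRNA leaders as part of the cap-binding complex. EIF4A1 was at 36.1, 41.0 and 197.1 FPKM over the controls, set against 130.9, 180.6 and 124.3 over the knockdowns, and EIF4A2 at 57.0, 79.3 and 528.5 against 226.4, 192.3 and 369.6. Control 3 was above every knockdown for both, and controls 1 and 2 below. EIF4G1, the scaffold that holds EIF4A, was at 0.59, 1.13 and 13.0 FPKM among controls, compared with 6.50, 11.95 and 15.1 among knockdowns, a log2 change of 1.68, or 2.66 without control 3 (limma adjusted p = 0.775 and 0.0025).

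EIF4G2 and EIF4E had means of 173.9 and 90.3 FPKM in controls and 195.7 and 120.8 in knockdowns. NUP214, the pore protein on which DDX19 docks, had its highest levels in controls 1 and 2, at 227.9, 231.5 and 70.8 FPKM in controls, against 70.2, 114.4 and 125.8 in knockdowns, with control 3 among the knockdowns. MAGOH was at 61.5 ± 11.7 and 66.3 ± 16.9 FPKM (SD, n = 3). RBM8A, which pairs with MAGOH, was at 13.4 ± 2.0 and 35.0 ± 19.8 FPKM (SD, n = 3), with knockdown 2 inside the control range. SUGP1, a splicing partner of DHX15, was at 0.75 ± 0.49 and 1.80 ± 0.51 FPKM, and SUPV3L1, a mitochondrial RNA helicase, at 10.3 ± 3.05 and 5.47 ± 2.35 (SD, n = 3).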

How the data were processed

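Pig 8-cell embryos were profiled with SMARTer mRNA libraries, 3 control and 3 knockdown, per the labels' protocols. Cutadapt, Bowtie2 2.3.5 and StringTie 2.1.7 with the Sscrofa11.1 build are named in the submitters' processing notes, with no role or order. The deposited table gives the authors' coverage signal, FPKM and TPM for each transcript. No source used here gives the strand setting, multi-mapping rules or read totals, so depth was read only as coverage per FPKM and no counting interval is given. The column prefixes SL and C were matched to the knockdown and control titles by their letters and numbers. Another 9 value columns carry no label of these samples and were not used, nor were 2 other sheets.

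FPKM was summed per gene over 81774 transcript rows, of which 129 date-like symbols were restored and 1758 stand under an identifier. Values were tested as log2(FPKM + 1) for the 10417 genes that averaged 1 FPKM or more, with limma 3.58.1 in R 4.3.3 (trended, two-sided, Benjamini-Hochberg over all tested genes, threshold 0.05). Each library was taken as 1 unit, and the labels do not say whether the libraries were independent. The script was tested on simulated data. Tables were made with pandas 2.3.3 and numpy 2.4.6 in Python 3.11.15. Alternatives were pseudocounts of 0.1 and 5, other filters and scalings, TPM, no trend, array weights, a replicate block, single transcript rows and each library left out. The members, roles, partners and markers were chosen with earlier results of these data known. Genes described by rule were, for each role, the 2 with the highest mean and the 2 with the smallest p, those whose groups do not overlap, close pairs, and the 6 partners highest by mean and by p; other members were added so that all 50 are accounted for.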

Additional observations from a re-analysis of the deposited data

How the results depend on the processing

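With 6 libraries 0 genes, 0 helicases and 0 partners passed, and unadjusted p-values under 0.05 numbered 436, 4 and 2. Array weights gave 3405 genes, 22 helicases and 23 partners, and single transcript rows 14 rows in all. Leaving out 1 library at a time gave 0 to 2854 genes, 0 to 17 helicases and 0 to 20 partners, with the highest counts without control 3. The median log2 change of the helicases was 0.31, from 0.15 to 0.58 with a library left out, 0.08 after quantile normalization, and 0.47 and 0.13 with pseudocounts of 0.1 and 5. Signs turned for 9 helicases under quantile normalization and for 0 to 6 under each other setting. Libraries share a replicate number only: deviations of same-numbered libraries correlated by 0.085, 0.063 and 0.226, and with a replicate block 0 genes, 0 helicases and 0 partners passed, with 747, 6 and 3 at an unadjusted p under 0.05. Control 3, the unknown read depth and 3 libraries a group limit what these values can show; the cause of control 3's position was not tested.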
